A study of Mus musculus with 16 samples.

Results

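Integrins are receptors of 2 chains, one alpha and one beta subunit, that span the cell membrane, hold cells to proteins of the extracellular matrix and pass signals in both directions. The partner chain sets the ligand: Itga5 with Itgb1 binds fibronectin, Itga1 with Itgb1 binds collagens, Itga3 and Itga6 with Itgb1 bind laminins, Itga6 with Itgb4 binds laminin too, Itga4 with Itgb1 binds Vcam1 and fibronectin, and Itgav with Itgb3 or Itgb5 binds vitronectin and related proteins. In brain vessels these receptors anchor endothelial cells to the basement membrane, and the fibronectin and Itgav receptors are known from growing and remodelling vessels. The genes described here are 10 integrin subunits of endothelium, Itga1, Itga3, Itga4, Itga5, Itga6, Itgav, Itgb1, Itgb3, Itgb4 and Itgb5, chosen by their symbols from the 37003 genes of the table. A further 17 integrin subunits in the table, of 27 in all, were counted separately.

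RNA was sequenced from freshly sorted mouse brain endothelial cells (bECs; living, CD45-negative, CD31-positive) in 16 libraries, 4 per group, 72 hours after a sham operation or after 30 min of middle cerebral artery occlusion (MCAo) with reperfusion. YT-iKO and CTRL mice both had floxed alleles of Yap and Taz. YT-iKO mice also carried the Pdgfb-iCreER-eGFP transgene, in which the Pdgfb promoter drives a tamoxifen-inducible Cre in endothelial cells. CTRL mice were littermates without this transgene. Both genotypes received tamoxifen before surgery, so each genotype, CTRL and YT-iKO, gave a sham and an MCAo group, all of adult mice of both sexes. Sham tissue or the territory of the occluded artery, with the matching area of the other side, was dissected before cells were isolated. Each replicate was a pool of brain tissue from several mice, and the sexes within a pool are not given in the sources used here. The Cre-negative littermates control for tamoxifen, and no group carried Cre without the floxed alleles, so Cre and the loss of both genes cannot be told apart.

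The libraries held 11418262 to 23074547 counts (median 16441012). Values are given in CPM, counts scaled to equal library size with TMM normalization, in which factors make most genes level between libraries. Yap1 was 111 to 112 CPM in CTRL sham and 38.6 to 59.2 CPM in YT-iKO sham, Wwtr1, the gene of TAZ, was 253 to 276 and 45.0 to 95.9 CPM, and in edgeR's quasi-likelihood test both were lower in YT-iKO after sham and after MCAo (adjusted p 0.0036 to 0.0478). Summed over 8 endothelial markers the level was 9258 to 19857 CPM, and summed over 8 platelet markers 6.29 to 18.0 CPM. Libraries differed in a background of reads on 1466 olfactory, vomeronasal and taste receptor genes, which was 0.0308 to 0.576 CPM per kilobase of exon and highest in YT-iKO MCAo replicates 2 and 3 and YT-iKO sham replicate 3. At that density the background would make up a median of 0.192% of the counts of Itga6 but 8.51% of those of Itgb3 and 8.76% of those of Itga4, and at most 21.3% for any member in any library.

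All 10 members passed the filter on low counts, with 144 counts (Itgb3, CTRL sham replicate 2) to 20210 counts (Itga6, YT-iKO sham replicate 1). Levels between genes were compared per kilobase of exon. In CTRL sham, Itga6 and Itgb1, the chains of a laminin receptor, had the highest levels, at 109 ± 11.1 and 105 ± 4.63 CPM per kilobase (SD, n = 4), and the ranges of their libraries overlapped. Itga1, the collagen receptor chain, followed at 27.6 ± 1.94 CPM per kilobase, below every library of Itgb1 and above every library of the genes after it. Itga3, at 12.7 ± 0.397, and Itga5, at 12 ± 1.22 CPM per kilobase, overlapped each other. Itgav was at 4.93 ± 0.362, Itgb5 at 4.37 ± 1.08, Itgb4 at 2.85 ± 0.553, Itga4 at 2.45 ± 0.269 and Itgb3 at 1.89 ± 0.367 CPM per kilobase. Among these 5 genes each overlapped its neighbour in the order except Itga4 and Itgb3, whose libraries were separated only by 2.22 against 2.21 CPM per kilobase. The step between Itga5 and Itgav, 2.43-fold, therefore parted 5 genes with higher levels from 5 with lower levels.

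**Figure D1:**
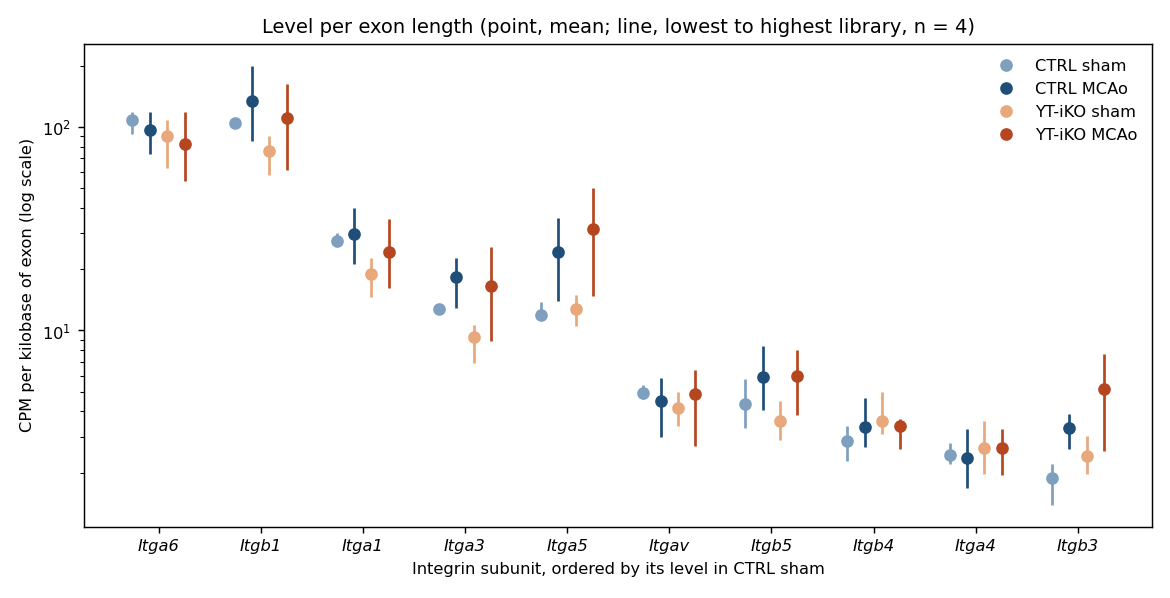
Levels of the 10 integrin subunits in CPM per kilobase of exon (vertical axis, log scale), ordered by CTRL sham, with a point for the mean of each group and a line from its lowest to its highest library (n = 4). Itga6 and Itgb1 stand near 100, and Itga5 and Itgb3 have their highest means in YT-iKO MCAo, at 31.6 and 5.16.

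The order of the genes depends on the length used. With the length of the longest APPRIS principal transcript in place of all exons, Itga6 was at 227 CPM per kilobase against 112 for Itgb1, and Itga5 stayed the fifth in CTRL sham. Over all exons it was the fourth in CTRL MCAo, at 24.4 ± 10.1 CPM per kilobase, and the third in YT-iKO MCAo, at 31.6 ± 18.3, with wide ranges of 14 to 35.7 and 14.8 to 50.4. With APPRIS lengths Itga5 was the fourth in YT-iKO MCAo, at 35.6 CPM per kilobase against 41.2 for Itga1. In both MCAo groups the highest mean was that of Itgb1 over all exons and that of Itga6 with APPRIS lengths.

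YAP and TAZ act through TEAD factors, which bind a motif with the letters GGAATG, so the promoters of the fibronectin receptor chains are shown here from 250 bases before to 50 after the RefSeq start site (GRCm38.p6). Capitals mark GGAATG on either strand. The Itgb1 window lies on the plus strand at chr8:128685404-128685703 and the Itga5 window on the minus strand at chr15:103366742-103367041.
Itgb1: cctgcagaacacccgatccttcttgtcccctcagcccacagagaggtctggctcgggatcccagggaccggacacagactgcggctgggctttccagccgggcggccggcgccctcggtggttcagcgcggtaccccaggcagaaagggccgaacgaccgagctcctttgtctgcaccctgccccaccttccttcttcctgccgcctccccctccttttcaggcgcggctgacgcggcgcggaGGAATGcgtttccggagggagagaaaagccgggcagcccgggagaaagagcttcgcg
Itga5: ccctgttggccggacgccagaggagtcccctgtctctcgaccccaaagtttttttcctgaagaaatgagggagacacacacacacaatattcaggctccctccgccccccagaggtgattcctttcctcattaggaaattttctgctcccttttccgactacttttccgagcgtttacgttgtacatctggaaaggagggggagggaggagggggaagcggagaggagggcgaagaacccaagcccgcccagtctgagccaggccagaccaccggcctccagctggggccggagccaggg
The Itgb1 window held 1 match, which begins at base 244 of the 300 and ends just before the start site, and the Itga5 window held none. Promoter windows were matched for 7 members in 8 windows, and Itgb1's was the 1 window of the 8 with GGAATG, which 14.7% of all 32851 windows hold. The AP-1 motif TGANTCA, searched on both strands, was in 1 of the 8, a window of Itga3, against 7.81% of all windows. No window was matched for Itga6, Itgb3 and Itgb4. A match in these letters describes the sequence only.

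The comparison of MCAo with sham asks how the integrin transcripts of bECs differ 3 days after a stroke. Across both genotypes, Itga5 and Itgb3 were higher after MCAo, Itga5 by 2.25-fold and Itgb3 by 1.94-fold, and no other member passed the test. In limma-voom with quality weights, an alternative test, both were called at a smaller log2 fold change of 0.49, where that test called 54.7% of all genes. Itga3 and Itgb5 stood at 1.60-fold and 1.5-fold without passing the main test. Itga6, the most abundant alpha chain, was at 0.906-fold.

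Itga5 (ENSMUSG00000000555, chr15:103344286-103366763, minus strand) had 55.5, 57.0, 55.5 and 68.0 CPM in CTRL sham replicates 1 to 4 and 176, 90.1, 68.9 and 147 CPM in CTRL MCAo. In YT-iKO sham it had 73.8, 63.7, 52.0 and 62.4 CPM and in YT-iKO MCAo 218, 84.4, 73.0 and 249 CPM. The CTRL groups did not overlap, with 68.9 against 68.0 CPM at the border, while in YT-iKO the lowest MCAo library (73.0 CPM) was just under the highest sham library (73.8 CPM). Replicates 1 and 4 were well above replicates 2 and 3 in both MCAo groups. Averaged over genotypes the log2 fold change was 1.17 ± 0.24 (SE; edgeR, adjusted p 0.0134), and it was 1.03 ± 0.34 in CTRL (adjusted p 0.676) and 1.31 ± 0.34 in YT-iKO (adjusted p 0.203).

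Itgb3 (ENSMUSG00000020689, chr11:104608000-104670476, plus strand), the beta chain of the vitronectin receptor, had 10.9, 8.20, 12.4 and 13.1 CPM in CTRL sham and 22.9, 15.4, 17.2 and 22.9 CPM in CTRL MCAo. In YT-iKO sham it had 13.3, 11.6, 14.2 and 17.8 CPM and in YT-iKO MCAo 45.2, 23.8, 15.2 and 37.5 CPM. Here too the CTRL groups were separate, and in YT-iKO only MCAo replicate 3 lay within the sham range. The log2 fold change was 0.96 ± 0.19 averaged over genotypes (edgeR, adjusted p 0.0104), 0.81 ± 0.27 in CTRL (adjusted p 0.714) and 1.10 ± 0.27 in YT-iKO (adjusted p 0.125).

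With genotypes averaged, then, 2 of the 10 members were called, where edgeR called 383 of 31085 genes (1.23%). In CTRL alone edgeR called 0 of 10 members against 0.216% of all genes, with 2 members and 3.5% of all genes at an unadjusted p under 0.05, and DESeq2 called 0 of 10 against 0.576%. In YT-iKO alone edgeR called 0 of 10 against 0.318%, with 4 members (Itga3, Itga5, Itgb3 and Itgb5) and 3.01% of all genes at an unadjusted p under 0.05, and DESeq2 called 2 of 10, Itga5 and Itgb3, against 0.705%. DESeq2 also called Itga3 with genotypes averaged, so 3 of 10 against 2.17%. Leaving out any 1 of the 16 libraries kept the calls of Itga5 (adjusted p 0.00216 to 0.05) and Itgb3 (0.000905 to 0.0492) with genotypes averaged. Without YT-iKO MCAo replicate 2 there were 4 members called, Itga3 and Itgb5 added, against 1.83% of all genes, and without YT-iKO MCAo replicate 3 there were 3, Itga3 added, against 1.39%. In YT-iKO alone, Itga5 and Itgb3 passed once replicate 2 (adjusted p 0.0327 and 0.0591) or replicate 3 (0.034 and 0.00918) of YT-iKO MCAo was left out, against 0.642% and 0.519% of all genes.

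By library ranks, the groups did not overlap for 2 of 10 members higher after MCAo in CTRL, against 2.24% of all genes, for 0 of 10 in YT-iKO, against 0.785%, and for 0 of 10 in both genotypes at once, against 0.37%. In a two-sided exact test that permuted libraries, run on log2(CPM + 1) with assignments kept within each genotype, p was 0.000816 for Itga5 and for Itgb3, among 60 such tests of members and comparisons run without adjustment, and 0.000408 is the smallest p the design allows. Within 1 genotype the smallest exact p is 0.0286, which both reached in CTRL. Over all 10 members the median log2 fold change was 0.34 with genotypes averaged, with 8 above 0, and 0.03 over all genes tested. With limma-voom 4 of the 10 were above 0, where the median over all genes was 0.2.

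**Figure D2:**
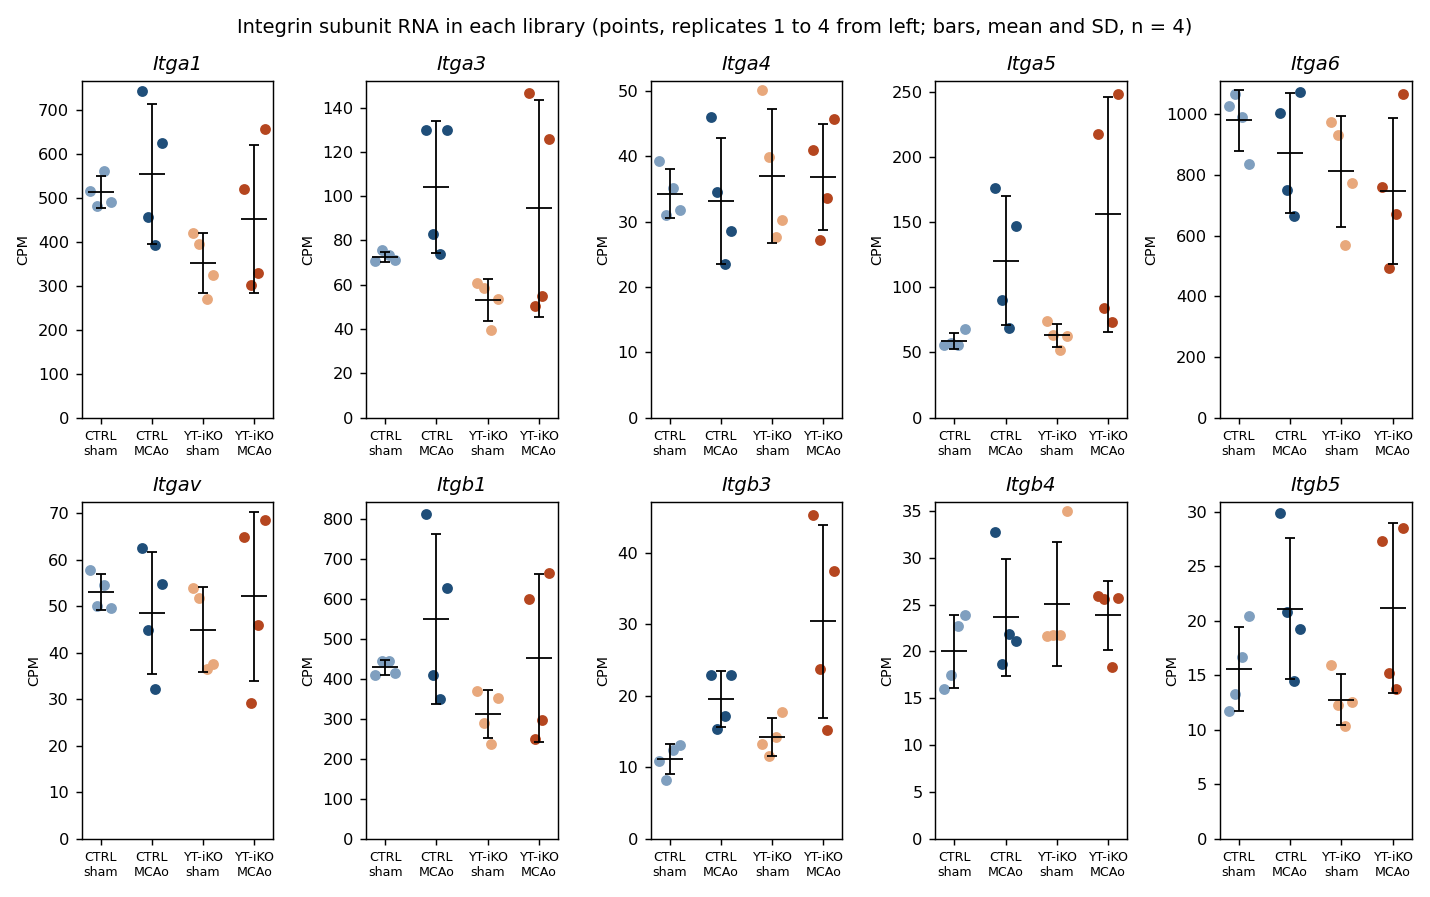
CPM of the 10 integrin subunits in each of the 16 libraries (points, replicates 1 to 4 from left in each group; bars, mean and SD, n = 4). For 7 of the 10 members (Itga1, Itga3, Itga5, Itga6, Itgav, Itgb1 and Itgb3), replicates 1 and 4 of both MCAo groups lie above replicates 2 and 3.

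The pattern of the MCAo replicates ran alongside the background. In CTRL MCAo the background density was 0.105 and 0.164 CPM per kilobase in replicates 1 and 4 and 0.328 and 0.392 in replicates 2 and 3. In YT-iKO MCAo it was 0.147 and 0.0308 in replicates 1 and 4 and 0.576 and 0.443 in replicates 2 and 3. TMM factors computed from all genes were 0.743 to 1.40 over the 16 libraries, while factors computed from abundant genes, those whose mean reached 10 CPM, an alternative scaling, were 0.938 to 1.04. On that scaling the spread within groups, as a pooled SD on the log2 scale, was 0.319 in place of 0.562 for Itga5, 0.0952 in place of 0.372 for Itga1 and 0.337 in place of 0.410 for Itgb3. It was smaller for 9 of the 10 members and larger for Itgb4, at 0.328 in place of 0.297. Within groups, the correlation with background density was -0.88 for Itga5, -0.95 for Itga1 and -0.58 for Itgb3 with factors from all genes. With factors from abundant genes it was -0.69, -0.79 and 0.09 for these genes. It was then -0.65 for Itgb1, -0.53 for Itga3 and -0.18 for Itgb5. The median log2 fold change of all genes moved by 0.14 in CTRL, by 0.07 with genotypes averaged and by -0.01 in YT-iKO.

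Scaled by abundant genes, 6 of 10 members were higher after MCAo with genotypes averaged, where edgeR then called 5.14% of all genes, 65.0% of the calls being higher after MCAo in place of 75.7%. Itga5 had 50.8 to 64.8 CPM in CTRL sham and 86.9 to 137 CPM in CTRL MCAo, 59.1 to 69.8 CPM in YT-iKO sham and 89.9 to 191 CPM in YT-iKO MCAo, with no overlap in either genotype. Its log2 fold change was 1.11 ± 0.14 (edgeR, adjusted p 0.000117). Itgb3 was at 0.94 ± 0.16 (adjusted p 0.00151). With the expected background taken off as well, the difference of the means of log2(CPM + 1) was 1.06 for Itga5 and 0.93 for Itgb3, against 1.05 and 0.89 with it left in. Of the 4 further members, Itga3 was at 0.65 ± 0.11 (adjusted p 0.00128), Itgb5 at 0.58 ± 0.12 (0.00727), Itgb1 at 0.41 ± 0.10 (0.027) and Itga1 at 0.23 ± 0.06 (0.0279). In CTRL alone 3 of 10 were called (Itga3, Itga5 and Itgb3, against 1.78%) and in YT-iKO alone 4 of 10 (those 3 and Itgb5, against 1.72%, with 71.5% of calls higher in place of 86.9%).

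The groups did not overlap on this scale for 4 of 10 members higher after MCAo in CTRL, against 4.69% of all genes, and for 4 of 10 in YT-iKO, against 1.87%. Itga3 (ENSMUSG00000001507, chr11:95044474-95076801, minus strand), the laminin receptor chain, was among both, with 65.9 to 70.7 CPM after sham and 93.0 to 118 after MCAo in CTRL, and 53.2 to 56.3 and 67.7 to 129 in YT-iKO. Itgb5 (ENSMUSG00000022817, chr16:33829665-33949338, plus strand) had 11 to 19.5 CPM after sham and 17.5 to 24.2 after MCAo in CTRL, and 11.4 to 14.3 and 16.9 to 24.0 in YT-iKO, separate in YT-iKO only. Itgb1 (ENSMUSG00000025809, chr8:128685654-128733200, plus strand), the beta chain shared by most of these receptors, had 384 to 415 CPM in CTRL sham and 441 to 632 in CTRL MCAo, and 269 to 372 and 337 to 528 in YT-iKO. The 4 members called under neither scaling, Itga4, Itga6, Itgav and Itgb4, had log2 fold changes from -0.14 to 0.09 with the main factors and from -0.13 to 0.11 with those from abundant genes.

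**Figure D3:**
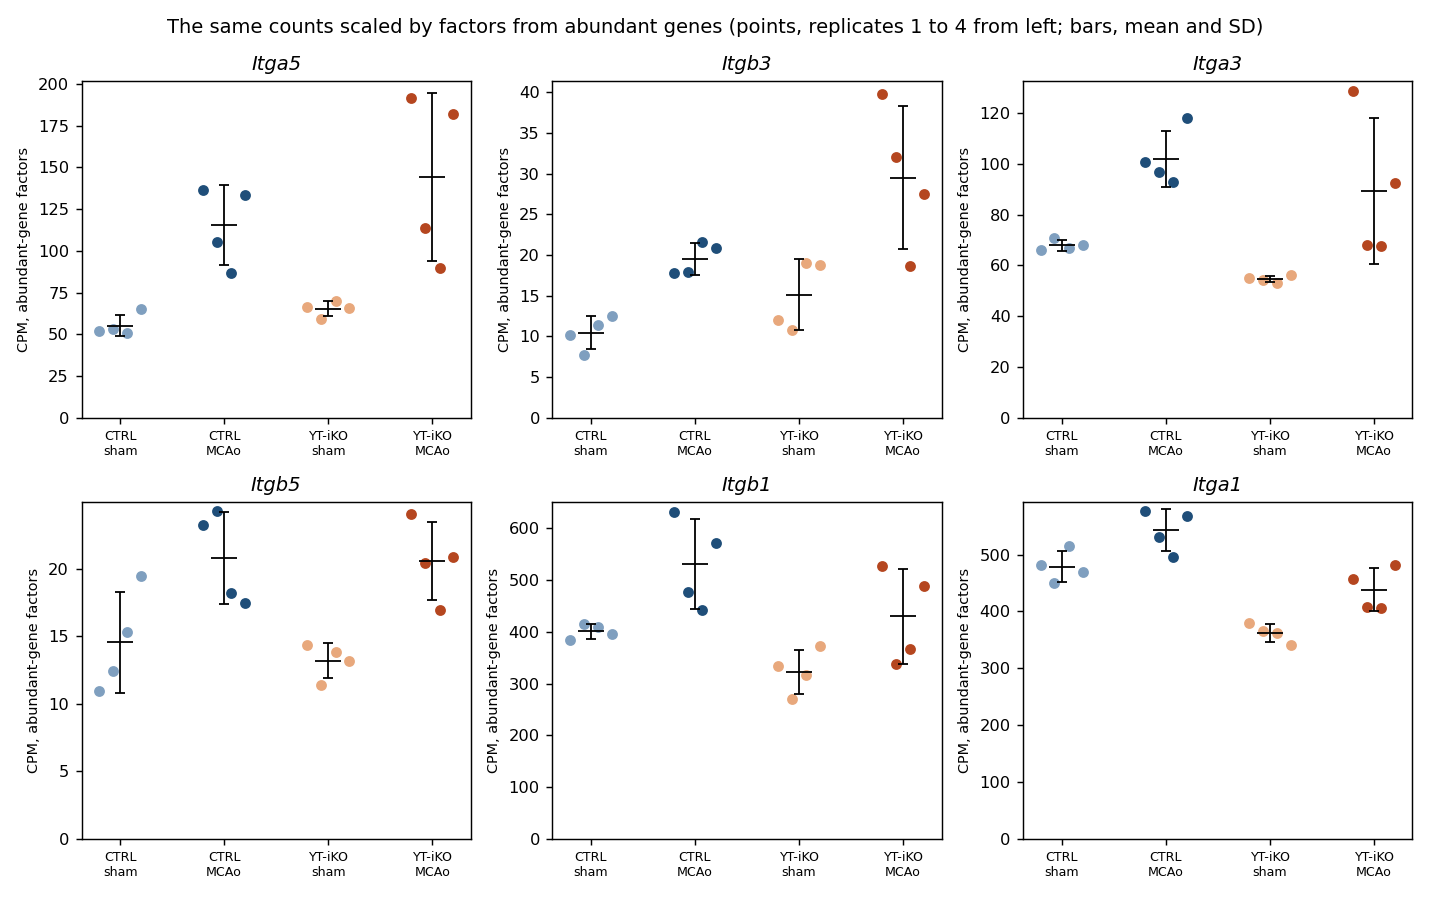
The 6 members called with genotypes averaged, in CPM scaled by factors from abundant genes, in each library (points, replicates 1 to 4 from left; bars, mean and SD, n = 4). Every MCAo library of Itga5 and of Itga3 lies above every sham library of the same genotype.

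**Figure D4:**
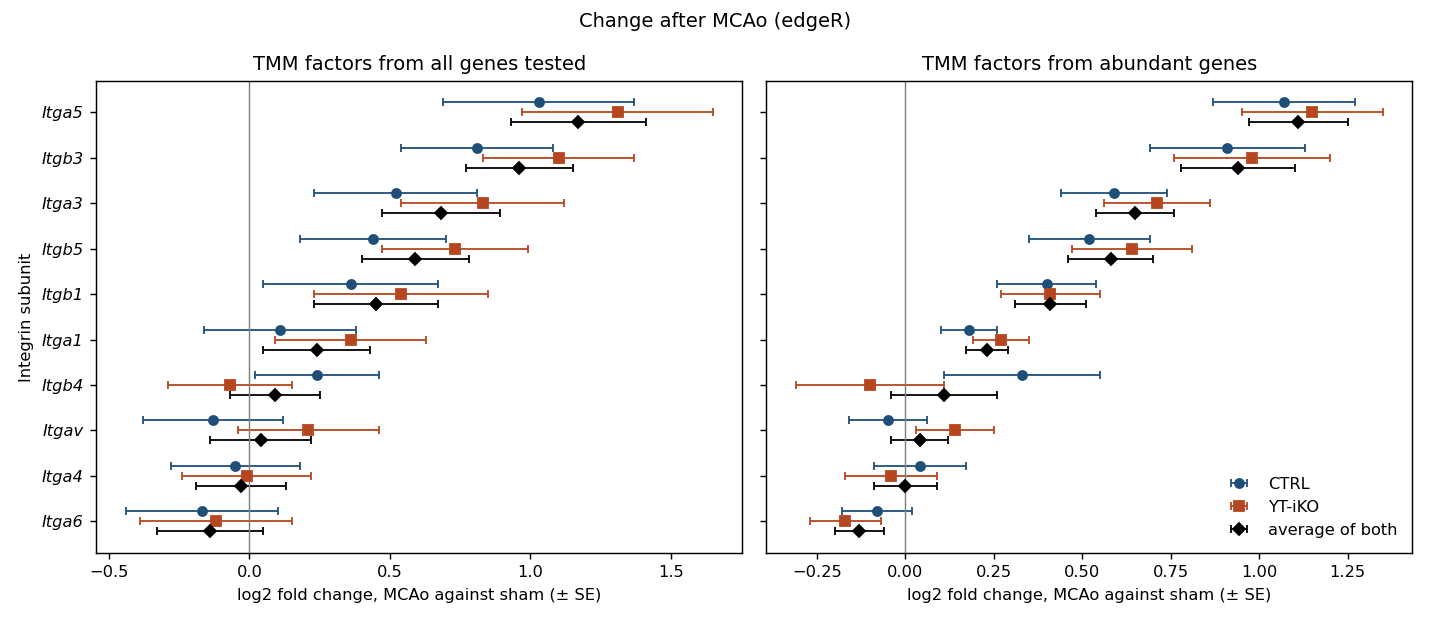
Log2 fold change of each member after MCAo (horizontal axis, ± SE from edgeR) in CTRL, in YT-iKO and averaged, with factors from all genes tested on the left and from abundant genes on the right. Itga5 and Itgb3 are farthest to the right in both panels, and the standard errors are smaller in the right panel.

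Itga6 (ENSMUSG00000027111, chr2:71745616-71858416, plus strand) had 837 to 1066 CPM in CTRL sham and 663 to 1075 in CTRL MCAo, and 568 to 974 and 491 to 1067 in YT-iKO, and all 4 ranges overlapped. It was called lower after MCAo in 1 alternative, limma-voom with quality weights, with a log2 fold change of -0.39 and an adjusted p of 0.00846 with genotypes averaged, where that test called 54.7% of all genes. Itgav (ENSMUSG00000027087, chr2:83724397-83806916, plus strand) had 49.6 to 57.8 CPM in CTRL sham and 32.2 to 62.6 in CTRL MCAo, and 36.4 to 53.8 and 29.2 to 68.4 in YT-iKO. Itga4 (ENSMUSG00000027009, chr2:79255426-79333123, plus strand) ran from 23.5 to 50.2 CPM over all libraries and Itgb4 (ENSMUSG00000020758, chr11:115974709-116008412, plus strand) from 16 to 35.0 CPM. The exons of Itga4, Itgav and Itgb4 overlap those of an opposite-strand gene by 1124, 634 and 537 bases, and reads of the 2 strands cannot be told apart where counting did not use strand, which the sources used here do not state.

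Whether the response to MCAo differed between genotypes was tested as the difference of the responses. No member passed (0 of 10 in edgeR, against 0% of all genes, with 0 members and 116 genes at an unadjusted p under 0.05, and 0 of 10 in DESeq2, against 0%). For Itga5 the difference was 0.28 ± 0.47 and for Itgb3 0.29 ± 0.38 on the log2 scale, YT-iKO minus CTRL, so that differences of either sign lie within 2 standard errors.

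The comparison of YT-iKO with CTRL asks whether integrin transcripts depend on endothelial YAP and TAZ. No member passed the test with the main factors. After sham edgeR called 0 of 10 members against 0.0965% of all genes, with 0 members and 2.16% of all genes at an unadjusted p under 0.05, and after MCAo 0 of 10 against 0.0708%, with 1 member, Itgb3, and 1.49% of all genes at an unadjusted p under 0.05. Averaged over operations 0 of 10 were called against 0.28%, with 2 members, Itga1 and Itgb3, and 3.24% of all genes at an unadjusted p under 0.05. DESeq2 called 0 of 10 in each of these 3 comparisons, against 0.19%, 0.222% and 0.65% of all genes.

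Itga1 (ENSMUSG00000042284, chr13:114953096-115101964, minus strand) had 516, 481, 562 and 491 CPM in CTRL sham and 421, 395, 270 and 324 CPM in YT-iKO sham. Every YT-iKO sham library was below every CTRL sham library. Its log2 fold change after sham was -0.54 ± 0.27 (edgeR, adjusted p 0.99), and its exons share 685 bases with Gm49395 on the same strand. Itga3, at 70.5 to 75.6 CPM in CTRL sham and 39.7 to 60.9 in YT-iKO sham, and Itgb1, at 411 to 446 and 236 to 370 CPM, were likewise separate, so 3 of 10 members were lower without overlap, against 2.22% of all genes. After MCAo the count was 0 of 10, against 0.415%, with 393 to 742 CPM of Itga1 in CTRL MCAo and 302 to 657 in YT-iKO MCAo.

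Scaled by abundant genes, Itga1 was 450 to 514 CPM in CTRL sham, 341 to 380 in YT-iKO sham, 496 to 576 in CTRL MCAo and 406 to 482 in YT-iKO MCAo. The genotypes did not overlap after either operation, and the log2 fold change was -0.40 ± 0.08 after sham (edgeR, adjusted p 0.048) and -0.36 ± 0.06 averaged over operations (adjusted p 0.00223). It was the 1 member of 10 called after sham (against 0.37%) and averaged over operations (against 1.78%, with 33.0% of calls higher in YT-iKO in place of 8.05%), and this scaling moved the median of all genes by 0.19 and 0.12 towards higher values in YT-iKO. On this scaling 3 of 10 members were lower in YT-iKO sham without overlap, against 1.59%, and 1 of 10, Itga1, after MCAo, against 1.73%.

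Itgb3 had the opposite sign to Itga1 between genotypes, with 15.4 to 22.9 CPM in CTRL MCAo and 15.2 to 45.2 in YT-iKO MCAo, which overlapped. Its log2 fold change was 0.64 ± 0.27 after MCAo and 0.49 ± 0.19 averaged over operations (edgeR, adjusted p 1.00 for both). With the 3 libraries of highest background left out, which leaves 2 libraries of YT-iKO MCAo, Itgb3 was at 0.94 and Itga5 at 0.85 after MCAo (edgeR, adjusted p 0.0325 and 0.0403), where 1.47% of all genes were called and 65.4% of the calls were higher in YT-iKO, in place of 4.55% with all libraries. The median of all genes was then -0.42 in that comparison.

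The make-up of the receptors was described as shares of the summed CPM per kilobase. Among the 6 alpha members that pair with Itgb1, Itga6 held 64.4% ± 2.72 after sham and 55.4% ± 3.18 after MCAo in CTRL, and 65.1% ± 1.62 and 52.1% ± 6.82 in YT-iKO (SD, n = 4). Itga5 held 7.17% ± 1.25, 13.5% ± 2.26, 9.40% ± 0.928 and 18.3% ± 4.98 in the same order, and its MCAo and sham libraries did not overlap in either genotype. The share of Itga3 was 7.59% ± 0.445 in CTRL sham and 10.3% ± 0.342 in CTRL MCAo, and 6.78% ± 0.315 and 9.84% ± 2.49 in YT-iKO, again without overlap. Itga1 held 16.4% ± 1.33 in CTRL sham and 13.8% ± 0.491 in YT-iKO sham. A share is a ratio within a library and does not depend on the scaling, and it shows unequal levels, not which chain moved. Background reads do not cancel in a share. They would make up a median of 8.76% of the counts of Itga4, 1.57% for Itga5 and 0.192% for Itga6. For the beta chains the medians were 8.51% for Itgb3 and 0.202% for Itgb1.

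Among the beta members that pair with Itgav, Itgb1 held 90.6% to 94.4% of the level on average in every group. Itgb3 held 1.70% ± 0.340 after sham and 2.44% ± 0.535 after MCAo in CTRL, and 2.98% ± 0.676 and 4.34% ± 1.16 in YT-iKO. In both genotypes the MCAo libraries of Itgb3 overlapped the sham libraries, at 1.83% to 3.14% against 1.22% to 2.02% in CTRL and 3.24% to 5.80% against 2.31% to 3.81% in YT-iKO. By the same ranges, the share of Itgb3 was higher in YT-iKO than in CTRL without overlap, after sham and after MCAo. After MCAo the border was only 3.24% against 3.14%. Background would make up as much as 17.5% of the counts of Itgb3 (YT-iKO sham replicate 3), and its part in this difference was not tested. How often shares of other genes separate in this way was not computed. Itgb5 held 3.92% ± 0.965, 4.27% ± 0.868, 4.37% ± 0.396 and 5.07% ± 0.725, with overlapping libraries. With APPRIS transcript lengths the share of Itga5 was 4.34% in CTRL sham and 8.54% in CTRL MCAo, lower than with all exons and with the same order of groups.

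**Figure D5:**
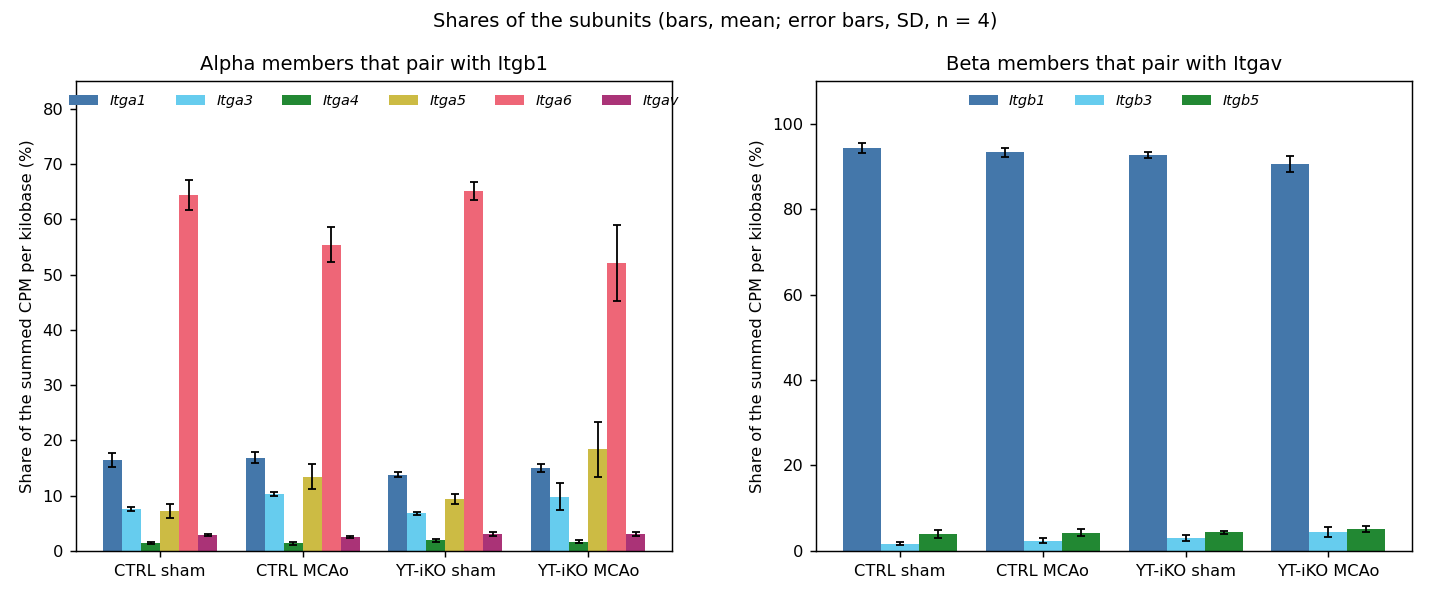
Shares of the summed CPM per kilobase (vertical axis, percent) of the alpha members that pair with Itgb1 (left) and of the beta members that pair with Itgav (right) in the 4 groups (bars, mean; error bars, SD, n = 4). Itga6 holds the largest share on the left and Itgb1 on the right in all 4 groups, and the share of Itga5 is higher in both MCAo groups than in the sham groups.

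Of the 17 other integrin subunits, 1 was called, Itga2b, which pairs with Itgb3 on platelets, in the comparison of MCAo with sham averaged over genotypes, where 1.23% of all genes were called. It had 4.02 to 5.07 CPM after sham and 6.71 to 12.3 after MCAo in CTRL, and 4.05 to 10.4 and 8.58 to 12.6 in YT-iKO, and was higher after MCAo with genotypes averaged (log2 fold change 0.71 ± 0.19; edgeR, adjusted p 0.09). The call was kept in 5 of the 16 fits that left out 1 library. The summed platelet markers overlapped between sham and MCAo, at 8.30 to 9.91 CPM in CTRL sham and 8.01 to 14.4 in CTRL MCAo, and 9.06 to 17.6 and 6.29 to 18.0 in YT-iKO. Pf4 and Gp9, which define platelets, were at 0.233 to 1.38 and 0.228 to 0.972 CPM over all libraries. The median log2 fold change of the 17 subunits was 0.12 after MCAo with genotypes averaged.

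Of 30 integrin ligands, 8 were higher and 1 was lower after MCAo with genotypes averaged, where 1.23% of all genes were called. In CTRL 2 were higher, against 0.216% of all genes called, and in YT-iKO 3 were higher and 1 lower, against 0.318%. With 1 library left out, 6 to 8 were higher and 1 lower with genotypes averaged, 0 to 4 were higher and 0 to 1 lower in CTRL, and 1 to 5 were higher and 0 to 1 lower in YT-iKO. In CTRL none was called without sham replicate 1 or sham replicate 2, and 1 without sham replicate 3 or MCAo replicate 1, 2 or 4. In YT-iKO the higher ligands fell to Vwf alone without MCAo replicate 1 or sham replicate 1, 2 or 4. Over all 30 ligands the median log2 fold change was 0.46 with genotypes averaged. Vwf, the von Willebrand factor that Itgb3 receptors bind, was at 1046 to 1392 CPM in CTRL sham and 2883 to 6965 in CTRL MCAo, and at 679 to 869 and 1924 to 6614 in YT-iKO (log2 fold change 2.17 ± 0.27; edgeR, adjusted p 7.23e-05). Lamb1, a laminin beta chain, was at 1.75 ± 0.27 (adjusted p 0.00102), Tnc, tenascin C, at 1.35 ± 0.22 (0.0019), Spp1, osteopontin, at 2.49 ± 0.48 (0.00755) and Col1a2, a collagen chain, at 0.77 ± 0.17 (0.0252). Npnt, nephronectin, was lower, at -1.19 ± 0.20 (adjusted p 0.0025). Fn1, the fibronectin that Itga5 and Itgb1 bind, is named because of Itga5 and after its values were seen. It was at 3307 to 4223 CPM after sham and 4963 to 9232 after MCAo in CTRL, and at 2265.5 to 3082 and 4101 to 8944 in YT-iKO, without overlap in either genotype. Its log2 fold change was 1.02 ± 0.23 (edgeR, adjusted p 0.0269), and it lost the call without CTRL sham replicate 2, CTRL MCAo replicate 4 or YT-iKO sham replicate 4, at up to 0.132.

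Between genotypes 1 of the 30 ligands, Ccn2, a YAP and TAZ target, was lower in YT-iKO averaged over operations (log2 fold change -1.41 ± 0.31; edgeR, adjusted p 0.0735), against 0.28% of all genes called. This call was kept in 6 of the 16 fits that left out 1 library and was lost, at an adjusted p of up to 0.225, without YT-iKO MCAo replicate 3, CTRL MCAo replicate 1, 2 or 4, or sham replicate 2, 3 or 4 of either genotype. Over those 16 fits 0 to 3 ligands were lower, among them Lama4, a laminin alpha chain, in 7 fits and Ccn1 in 3. They numbered 2 without CTRL MCAo replicate 3, and 3 without replicate 1 of either YT-iKO group or YT-iKO MCAo replicate 4. In the comparison of genotypes after MCAo, 0 to 2 ligands were lower with 1 library left out. The 2 were Ccn1 and Ccn2, without YT-iKO MCAo replicate 1, where 0.0911% of all genes were called. Of 34 adaptors, proteins that tie integrins to actin such as talins, kindlins and parvins, 0 were called after MCAo in CTRL, in YT-iKO or averaged. Of all genes 0.216%, 0.318% and 1.23% were called there, so few calls among 34 genes would be looked for at those shares. The median log2 fold change of the adaptors was 0.09 for the average. Between genotypes 1 adaptor was called, averaged over operations, against 0.28% of all genes. Parva, alpha-parvin, a partner of Ilk beneath the beta chains, was at 48.1 to 61.3 CPM in CTRL sham, 22.1 to 33.4 in YT-iKO sham, 47.9 to 100.2 in CTRL MCAo and 24.8 to 47.6 in YT-iKO MCAo, and was lower in YT-iKO averaged over operations (log2 fold change -0.90 ± 0.18; edgeR, adjusted p 0.0284).

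Markers of other cells were at low levels beside the endothelial ones. Summed over 5 fibroblast markers, the level was 16.9 to 19.1 CPM in CTRL sham and 26.1 to 31.5 in CTRL MCAo, and 17 to 34.8 and 26.0 to 34.0 in YT-iKO, so it was higher after MCAo without overlap in CTRL, where Itga5 and Itgb3 were too. With genotypes averaged, where 1.23% of all genes were called, 2 of the 5 were called higher, Dcn and Col1a2, the latter also counted among the ligands. Of 8 pericyte markers 0 were called, with sums of 656 to 788 CPM in CTRL sham and 466 to 1235 in CTRL MCAo, and 499 to 725 and 422 to 991 in YT-iKO. Of 5 smooth muscle markers 1 was called higher, Des, and of 5 astrocyte markers 1, Gfap, calls kept in 5 and 12 of the 16 fits that left out 1 library, and none of the markers was at 0 in every library of a group. Their part in the values of the integrin subunits was not tested, and in bulk RNA a change in the number of cells of a type and a change in RNA per cell cannot be told apart.

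The genes whose log2(CPM + 1) ran most alike with Itga5 over the 16 libraries, among 9129 genes whose mean reached 10 CPM, were Il4ra (Pearson r = 0.984), Cyb561 (0.975) and Cemip2 (0.975). For Itgb3 they were Slc45a4 (0.927), Gja4 (0.925) and Serpina3n (0.922). The libraries share depth and background with every gene, so these values are a description.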

How the data were processed

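The authors amplified RNA of sorted bECs with a SMART-Seq kit, sequenced paired ends and mapped the reads with STAR 2.7.8a to GRCm38 with GENCODE M12. The deposited values are raw counts per gene, without normalization, 1 column per library. The counting program and its use of strand are not given in the sources used here. Every gene in the table has counts in several libraries, and whether genes were filtered before deposit is not given either.

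R 4.3.3 with edgeR 4.0.16 was used: filterByExpr (minimum count 10, minimum total 15; 31085 genes left), TMM factors, 1 quasi-likelihood model of the 4 groups, 7 comparisons, Benjamini-Hochberg adjustment over all genes tested and a threshold of an adjusted p under 0.1. The study named DESeq2, used here as an alternative (1.42.0), as was limma 3.58.1. Positions and exon lengths came from GENCODE M21 on GRCm38 and promoter sequences from RefSeq (GRCm38.p6). Exact permutation tests used log2(CPM + 1) over 70 assignments of 4 and 4 libraries, or 4900 within genotypes or operations for the averaged comparisons. Replicates were separate pools of mice. The edgeR and DESeq2 fits were tested on simulated counts, for MCAo against sham in CTRL and with genotypes averaged. The simulation held no differences in background between libraries, so it does not bear on them.

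The members and the gene lists were chosen with earlier results of these data known. All 10 members are named, and from each list at most 6 genes called in at least 1 comparison, by lowest adjusted p. Named outside this rule were Fn1, Ccn2 as the ligand called between genotypes, and the platelet genes Pf4 and Gp9. Lama4 and Ccn1 were also named outside it, for their calls in fits that left out 1 library. CPM cover counting error of amplified reads, which are not independent molecules, and the depth of 144 counts or more per member limits the precision of the lowest genes.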

Additional observations from a re-analysis of the deposited data

Results flagged for a closer look

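Of 40 sets of 4 libraries (10 members in 4 groups), 3 held a library far from the other 3 of its group by Dixon's ratio, for which chance gives about 1 in 20. Itga5 in CTRL sham was 68.0 CPM in replicate 4 with the next library at 57.0 CPM (ratio 0.882). Itgb4 in YT-iKO sham was 35.0 CPM in replicate 4 with the next library at 21.8 CPM (ratio 0.994). Itgb4 in YT-iKO MCAo was 18.3 CPM in replicate 3 with the next library at 25.6 CPM (ratio 0.958). No difference of the MCAo responses between genotypes passed the test for any member in edgeR, as given above.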

How the results depend on the processing

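Itga5 and Itgb3 kept their call after MCAo with genotypes averaged under all alternatives run, with log2 fold changes of 0.49 to 1.40 and 0.49 to 1.18 and adjusted p from 9.41e-07 to 0.05 and from 2.38e-05 to 0.0492. The lowest value, 0.49 for both, came from limma-voom with quality weights. Of 1790 member values recomputed, 118 changed sign, none of them called in either setting. The number of members called with genotypes averaged was 2, and it was 6 with factors from abundant genes, 3 with limma-voom (Itga5 and Itgb3 higher, Itga6 lower), 4 when genes had to exceed 1 CPM in 4 or more libraries, 6 without the 3 libraries of highest background (chosen after seeing the data) and 2 to 4 with 1 library left out. Over all genes, 383 calls became 676 with DESeq2, 641 with the CPM filter, 1598 with abundant-gene factors, 2009 without the 3 libraries and 17018 with limma-voom. In CTRL 0 members (0.216% of all genes) became 3 with abundant-gene factors (1.78%), 3 with only the 2 groups compared (2.52%), 3 with limma-voom (24.2%, again with Itga6 lower, at -0.36) and 3 without the 3 libraries (1.86%), and stayed at 0 with 1 library left out. In YT-iKO 0 (0.318%) became 2 with DESeq2 (0.705%), 4 with abundant-gene factors (1.72%), 2 with the CPM filter (0.536%), 1 with limma-voom (18.1%; Itga6, lower, at -0.42, adjusted p 0.0951), 6 without the 3 libraries (4.34%) and 0 to 2 with 1 library left out. Between genotypes 0 became 1 with abundant-gene factors after sham (0.37%), 2 without the 3 libraries after MCAo (1.47%), and, averaged over operations, 1 with abundant-gene factors (1.78%), 3 with limma-voom (2.4%; Itga1, Itga3 and Itgb1, lower) and 2 without the 3 libraries (1.65%; Itga5 and Itgb3, higher). The cause of these differences was not tested. For the averaged comparisons no fit of only 2 groups exists. Of 240 permutation tests repeated, 27 newly passed 0.05 and none was lost. All 27 used abundant-gene factors, alone or with the background taken off as well, so most of these changes were counted under both settings.

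The replicate numbers were checked for pairing over the 1000 genes that varied most within groups. The correlation of deviations had a median of 0.259 over 24 pairs with the same number and of -0.128 over 72 pairs with different numbers, and 9 of 16 libraries correlated best with their own number, a hint from the data that libraries of 1 number deviate together. Only 17 of the 24 were above 0.1, where all had to be, and the labels name no shared batch, so the main test kept no block. With the replicate block, 2 members were called in YT-iKO after MCAo (Itga5 and Itgb3; 0.425% of all genes) in place of 0 (0.318%), and the other counts of members stayed as they were.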
